A study of Arabidopsis thaliana with 12 samples.

Results

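The genes described here were close to silent in an undamaged rosette leaf of Arabidopsis thaliana and were read in every sample once another leaf of the same plant had been crushed. They were chosen as the locus codes with a raw count of 5 or fewer in each of the 6 unwounded samples and of 25 or more in each of the 6 wounded samples. Of 32833 locus codes in the tables, 13214 stayed at 5 or fewer in all unwounded samples and 65 met both thresholds. From these, 9 of 11 genes that the choice excludes by name were removed, which left 56 genes. The wounding contrast chose these genes, so their rise after wounding is given as a description, with no test. The difference between the 2 genotypes among wounded plants was not used for the choice, which treats both genotypes alike, although it sets a floor of 25 counts in every wounded sample. All 56 genes passed the filter on low counts, which they could do through their wounded samples alone.

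Libraries of poly-A RNA were made from leaf 13 of plants aged 5 weeks, either of the wild-type accession Col-0 (WT) or of isi1-2, a line of the gene ISI1 in the Col-0 background from the collection entry SALK_014032. In the wounded plants, the outer part of the blade of leaf 8 was crushed with plastic forceps, and leaf 13 was collected 1 h later. The controls were leaf 13 of plants that were not wounded. The 12 samples form 4 groups of 3 replicates (unwounded WT, wounded WT, unwounded isi1-2 and wounded isi1-2), each replicate pools 2 plants, and the mutant is represented by a single line. Nothing in the labels says whether the replicates were grown or wounded on separate days, so p-values measure only the spread between these samples.

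Wounding of one leaf sets off rapid signals that travel to connected leaves and start the synthesis of jasmonates there. The active form, jasmonoyl-isoleucine, brings the receptor COI1 together with JAZ repressors, which are then degraded and release transcription factors of the MYC2 type. These factors bind G-box sequences before genes of jasmonate metabolism, defence and stress signalling, and other families of stress regulators act beside them.

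The library totals ran from 23307790 to 30747778 counts over genes, with a median of 25874992. The targeted gene ISI1 had 254 to 270 counts in unwounded WT and 253 to 337 in wounded WT, against 1 in each unwounded isi1-2 sample and 1 to 4 in wounded isi1-2, which goes with the labels. Summed levels of 4 mesophyll markers were 57543 to 62579 CPM (counts-per-million, scaled by TMM) in the unwounded samples and 51598 to 57618 CPM in the wounded ones. Markers of root and seed summed to at most 0.300 and 0.239 CPM. Replicate 1 of wounded WT stood apart from its group for wound-responsive genes, and results that rest on it are given with and without it. In whole leaves, a transcript made by more cells and more transcript per cell cannot be told apart.

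The 56 genes together took 37 to 62 counts in an unwounded library, or 1.43 to 2.38 CPM against the plain library total. In wounded WT they took 11590, 19911 and 15902 counts, and in wounded isi1-2 18449, 17991 and 15961. Against the plain library total, this was 428, 648 and 576 CPM in WT and 724, 694 and 625 CPM in isi1-2. The distance between wounded and unwounded samples follows from the choice of the genes. Among wounded samples only replicates 2 of WT and 3 of isi1-2 crossed the order of the genotypes. In the unwounded samples 16 genes had no count at all in any library, 21 had at most 1 in any library and 39 had at most 3. At the edges of the choice, BHLH92 entered with a lowest wounded count of 26, LecRK-V.2 and AT5G44350 with 27, and the protease-inhibitor gene AT1G73325, MC7 and PRX25 with a highest unwounded count of 5. Just outside stood BSMT1 and AT3G59620, both with a lowest wounded count of 24, and AT1G09950 with 22. JOX3, which encodes a jasmonate-inactivating oxygenase, was left out by a highest unwounded count of 6, although its lowest wounded count was 1140. AT4G16590 and ABR1 also reached 6 in an unwounded library.

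**Figure D1:**
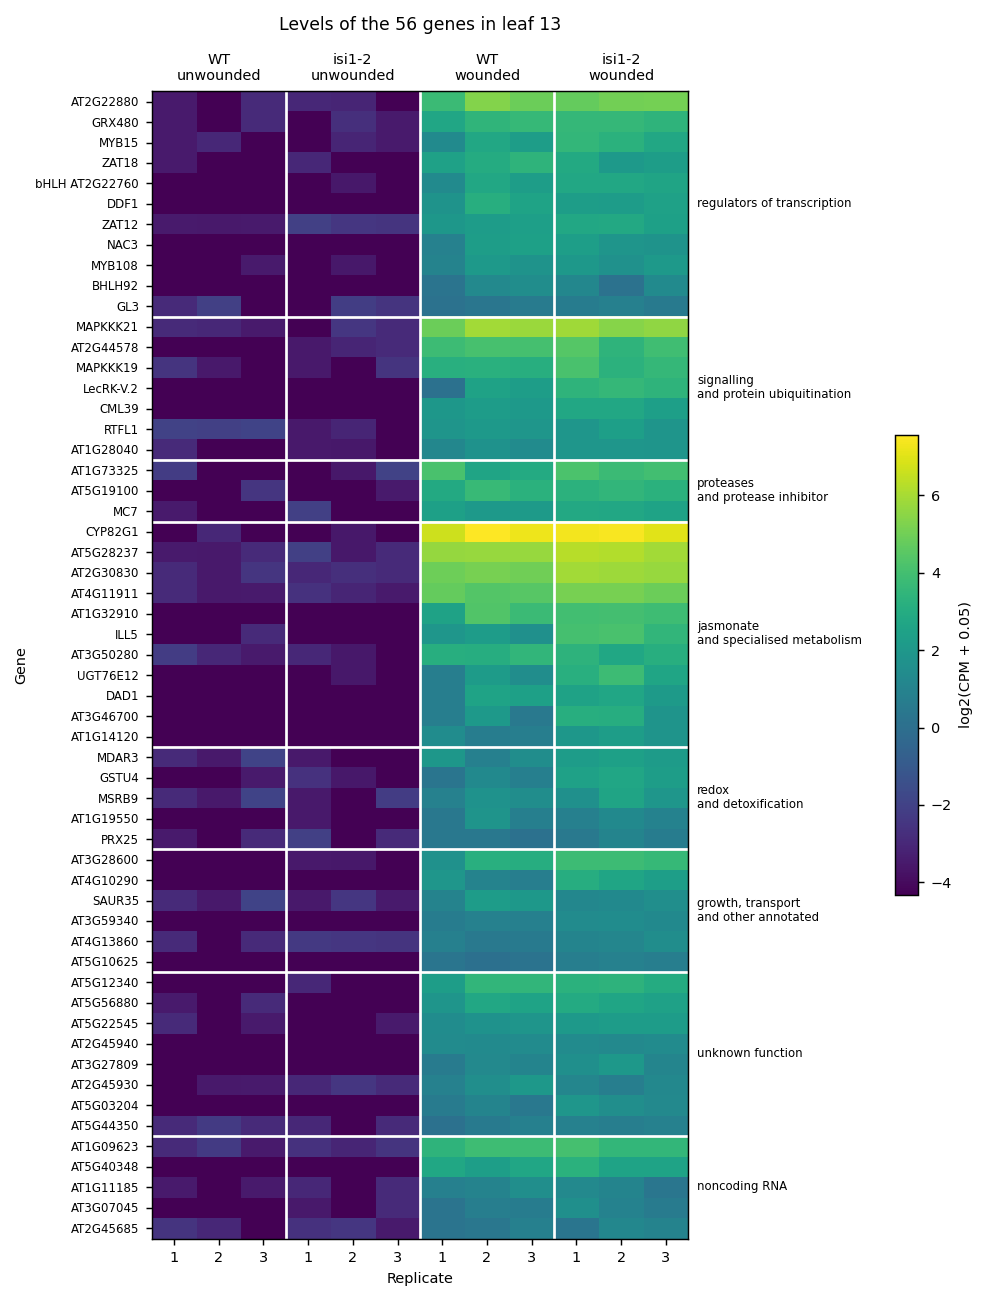
Level of each of the 56 genes (rows, grouped by role) in each of the 12 samples (columns), as log2(CPM + 0.05) in colour. All 56 rows are dark in the 6 unwounded columns and light in the 6 wounded columns, as the choice requires, and the highest row is CYP82G1, with means of 146.5 CPM in wounded WT and 155 CPM in wounded isi1-2.

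By annotation the set holds 51 protein-coding genes, 4 long noncoding RNAs and 1 other noncoding RNA. Long noncoding RNAs made up 7.14% of the set and 1.40% of all genes tested. The coding members were short and had few introns. A single exon was annotated in 20 of 51 (39.2%), against 12.6% of 18245 coding genes tested and 21.2% of 1288 coding genes that were at least doubled by wounding in both genotypes. The median exon length was 1312 bases, against 1812 and 1710 bases in those sets. The exceptions included the transporter-like AT3G59340, with 13 exons, MDAR3 with 9 and GL3 with 8.

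Upstream sequence was read for the 300 bases before each annotated gene start (RefSeq, assembly TAIR10.1). The letters CACGTG (the G-box) stood in 13 of the 56 windows, 23.2%, against 8.18% of the windows of tested genes, 6.48% of the windows of all 32548 matched genes and 15.4% of those of 1308 wound-doubled genes. The letters AACGTG (the T/G-box, on either strand) stood in 23 windows, 41.1%, against 8.29% of tested, 8.41% of all and 18.5% of wound-doubled genes. A hexamer cannot be both, and 31 members (55.4%) held at least 1 of the boxes, against 15.5% of tested genes, 14.1% of all genes and 30.7% of wound-doubled genes. Both boxes were present in 5 members and neither in 25. Of 40 boxes in the members, 25 lay within 150 bases of the start, in windows of 300 bases. The positions were not compared with those in other genes. The 40 boxes stand at 39 places in the genome, since 1 T/G-box lies in the windows of both AT2G45930 and AT2G45940, which face away from each other. The other motifs searched on both strands were GCCGCC (the GCC-box), found in 5 members (8.93%, against 2.42% of tested, 2.30% of all and 2.37% of wound-doubled genes), TTGAC (the W-box core) in 30 (53.6%, against 49.6%, 49.9% and 55.7%), and CGCGTT (a rapid stress response element) in 2 (3.57%, against 3.29%, 3.01% and 5.58%). These are matches of letters, with no test, and 16 of the windows overlap another annotated gene.

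**Figure D2:**
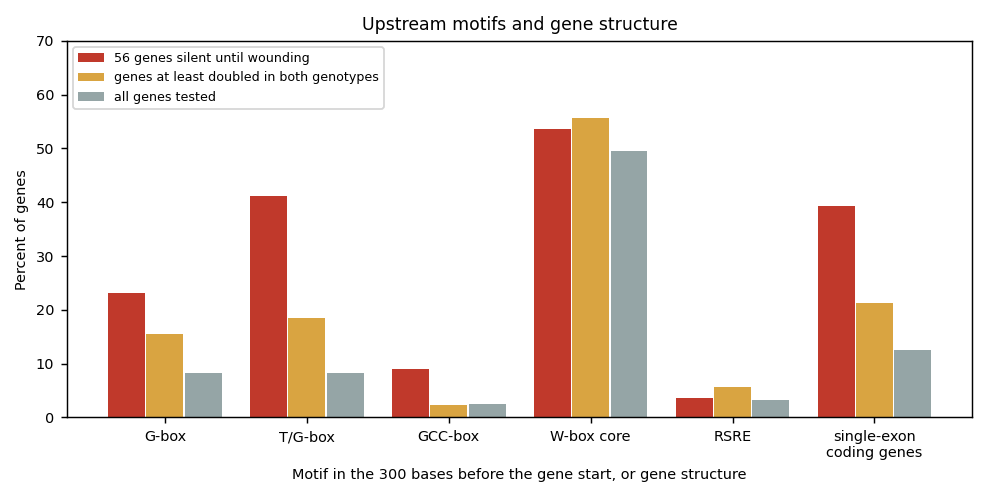
Percent of genes (vertical axis) with each of 5 motifs in the 300 bases before the gene start, and percent of coding genes with a single exon, for the 56 genes, all genes tested and genes at least doubled by wounding in both genotypes. The bars of the 56 genes stand above both other sets for the T/G-box (41.1%), the G-box (23.2%), the GCC-box (8.93%) and single-exon genes (39.2%), and not for TTGAC or CGCGTT.

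Stretches of 40 bases around a box are shown for members with high or variable levels, so that the boxes can be seen in their surroundings. All are on TAIR10.1, 5′ to 3′ on the strand of the gene, with the box in capitals.
MAPKKK21, chr4:17424003-17424042, minus strand: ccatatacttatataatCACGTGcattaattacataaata
MAPKKK19, chr5:26772468-26772507, plus strand: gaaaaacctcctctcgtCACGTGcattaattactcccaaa
AT2G44578, chr2:18401391-18401430, minus strand: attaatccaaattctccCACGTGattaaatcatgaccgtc
BHLH92, chr5:17534834-17534873, minus strand: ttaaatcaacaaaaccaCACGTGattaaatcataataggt
AT5G28237, chr5:10213710-10213749, minus strand: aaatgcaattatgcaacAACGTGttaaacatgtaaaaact
GRX480, chr1:10014290-10014329, minus strand: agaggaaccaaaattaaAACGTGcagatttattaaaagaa
LecRK-V.2, chr1:26411900-26411939, minus strand: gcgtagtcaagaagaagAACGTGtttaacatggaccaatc
DAD1, chr2:18478220-18478259, plus strand: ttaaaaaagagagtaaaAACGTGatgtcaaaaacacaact
AT1G73325, chr1:27568345-27568384, minus strand: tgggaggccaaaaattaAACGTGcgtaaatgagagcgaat
ZAT18, chr3:19875236-19875275, plus strand: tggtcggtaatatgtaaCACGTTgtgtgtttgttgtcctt
In ZAT18 the T/G-box lies on the other strand and so reads as its reverse complement. The kinase genes MAPKKK21 and MAPKKK19 share 17 bases around the G-box, tCACGTGcattaattac, which occur in 3 of the 32548 windows. AT2G44578 and BHLH92, whose proteins are unrelated, share the 16 bases CACGTGattaaatcat, found in 2 of the 32548 windows. Both pairs were picked after the windows had been read.

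Levels in wounded leaves spanned a wide range. Mean levels ran from 1.09 to 146.5 CPM in wounded WT and from 1.58 to 155 CPM in wounded isi1-2. Per kb of exon, the level averaged over the 6 wounded samples was highest for AT2G22880 at 85.2 CPM per kb, followed by CYP82G1 at 75.8, the noncoding AT1G09623 at 45.1, MAPKKK21 at 34.6 and AT2G30830 at 32.6. The lowest was GL3 at 0.526 CPM per kb. The median over the 56 genes was 4.51 CPM per kb, against 7.30 over all genes tested, and 15 members stood above that median. Even after induction, then, most members were below the middle of the genes expressed in this leaf.

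Between the wounded genotypes, 5 of the 56 genes (8.93%) were called higher in isi1-2 and 0 lower, at an adjusted p under 0.05 in edgeR's quasi-likelihood test over 18698 genes. In the same test 446 genes (2.39%) were called, 261 of them higher (1.4%) and 185 lower (0.989%). At an unadjusted p under 0.05, 24 members were higher and 1 lower, against 7.99% and 8.62% of all tested genes. DESeq2 called 10 members higher and 0 lower, against 2.3% and 1.76% of the genes to which it gave an adjusted p. Its 10 were the 5 of edgeR with AT1G14120, UGT76E12, AT4G10290, AT3G28600 and MYB15. The log2 fold change of isi1-2 over WT was positive for 45 members (80.4%) and negative for 11, whereas 48.5% of all tested genes were positive. Its median was 0.43 over the members and -0.01 over all tested genes, with members from -0.54 to 1.98. On the CPM scale the 3 isi1-2 samples lay above all 3 WT samples for 23 members (41.1%, against 9.87% of tested genes) and below them for 0 (10.3% of tested genes).

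Replicate 1 of wounded WT lay low for most members. It was the lowest of its group for 40 of the 56 members (71.4%), against 37.8% of all tested genes and 64.8% of the wound-doubled genes. Its level was a median 0.718 times the mean of the other WT replicates, against 1.00 over all tested genes and 0.832 over wound-doubled genes. Without it, 36 members were positive (51.6% of all tested genes), the median log2 fold change was 0.32, and 24 members had isi1-2 above every WT sample while 5 had it below (16.8% and 18.3% of tested genes). The count of called members rose to 12 without it, among 940 genes called (4.98%, or 2.73% higher). In isi1-2, replicate 3 was the lowest for 35 members (62.5%), at a median 0.868 times the mean of the others. The median coefficient of variation of the members was 28.0% in wounded WT and 15.4% in wounded isi1-2, against 7.99% and 7.77% over genes with a mean of at least 1 CPM. Those genes were not matched to the members in level or in response to wounding, so the excess cannot be read as particular to the members.

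**Figure D3:**
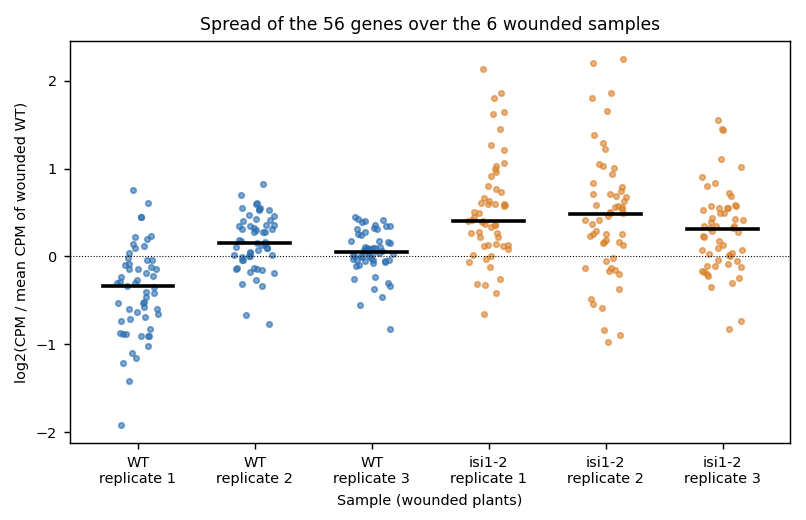
Level of each of the 56 genes in each of the 6 wounded samples, as log2 of its CPM over the gene's mean CPM in wounded WT; each point is a gene and each black bar a median. The median lies at -0.34 in replicate 1 of WT, at 0.16 and 0.05 in the other WT replicates, and between 0.31 and 0.48 in isi1-2.

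The interaction term, which compares the wounding effect between genotypes, rests in part on unwounded counts that the choice holds at 5 or fewer, and can say little about these genes. For the 16 members with no unwounded count its SE was at least 30.4 on the log2 scale and no call was possible (edgeR adjusted p = 1.00 for each). Among the others edgeR called 0, where 6 of all tested genes were called (0.0321%, with 0.016% in each direction), 3 had an unadjusted p under 0.05, and DESeq2 called 0 of the 56. Whether the genotypes differ in their response to wounding was thus hardly testable for these genes. No test between the genotypes within unwounded plants is quoted for these genes, since the choice held those values at 5 or fewer. RTFL1, which encodes a small peptide of the ROTUNDIFOLIA-like family, had 5, 5 and 5 counts in unwounded WT and 1, 2 and 0 in unwounded isi1-2. The zinc-finger gene ZAT12 had the reverse order, with 1, 1 and 1 in unwounded WT and 5, 4 and 3 in unwounded isi1-2. These genes are shown out of 56 for their counts alone, and no difference between the genotypes is read from them.

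**Figure D4:**
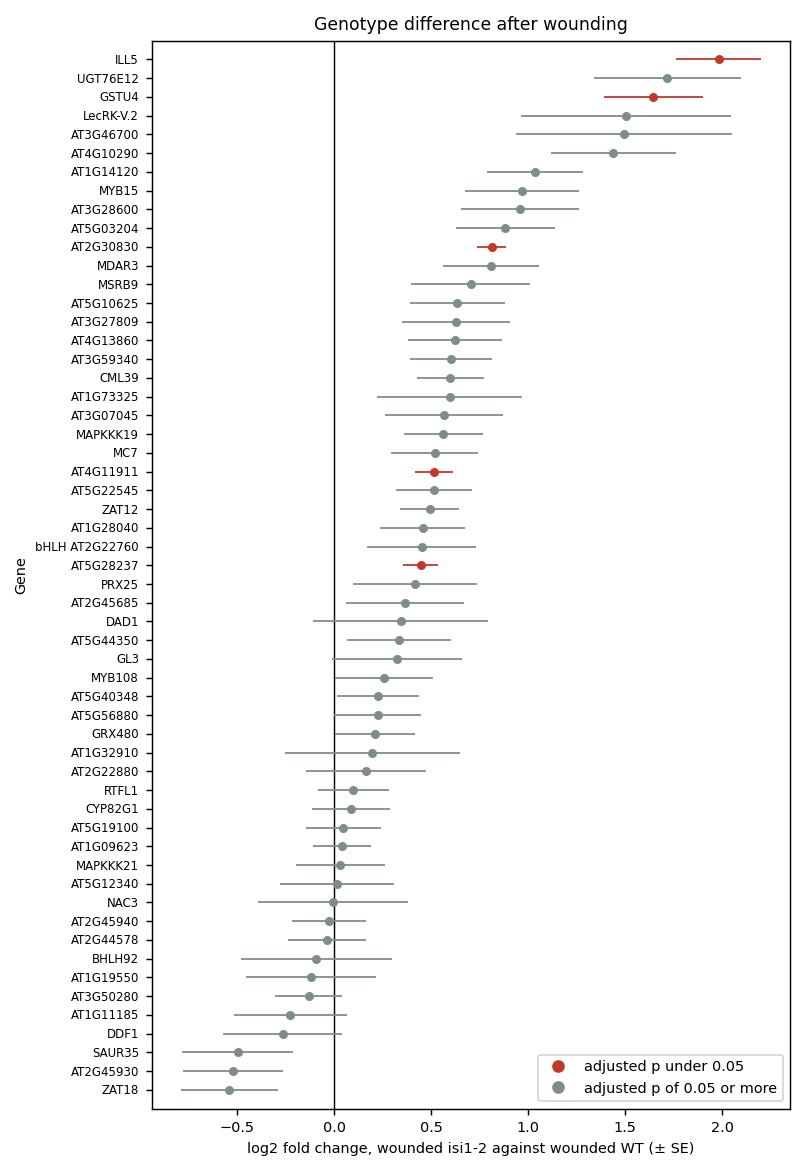
log2 fold change of wounded isi1-2 over wounded WT for each of the 56 genes, with its SE from the edgeR fit as bars; points in red have an adjusted p under 0.05. The 5 red points are ILL5, GSTU4, AT2G30830, AT4G11911 and AT5G28237, and 45 of the 56 points lie right of 0.

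The group set as jasmonate and specialised metabolism held 11 genes, several of them placed by protein family alone. Of these, 4 were called higher in wounded isi1-2, where 1.4% of all tested genes were. The 4 are annotated by family only, and DAD1, from the list of jasmonate synthesis genes, was not called. The log2 fold change was positive for 10 of the 11, with a median of 0.51. ILL5 encodes an amidohydrolase of the family that splits amino-acid conjugates of auxin and jasmonate. Its counts were 99, 143 and 82 in wounded WT and 404, 436 and 282 in wounded isi1-2, with at most 2 in any unwounded sample. Every isi1-2 sample was above every WT sample. Its level was 3.83 ± 0.867 CPM in WT and 15.2 ± 3.51 CPM in isi1-2 (mean ± SD, n = 3 each, as for the values that follow). The log2 fold change was 1.98 (SE 0.22, edgeR adjusted p = 0.00134), the largest of the 56. Its neighbour in the family, IAR3, had 694 ± 86.6 CPM in wounded WT and 972 ± 47.5 CPM in wounded isi1-2 (log2 fold change 0.48, edgeR adjusted p = 0.0212), and no 100-base stretch of ILL5 exons occurs elsewhere in the genome. Against a floor of 3 counts per unwounded library, ILL5 was at least 31.9-fold higher after wounding in WT and at least 135-fold higher in isi1-2.

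AT2G30830 encodes an oxygenase that depends on 2-oxoglutarate, an enzyme class common in hormone and specialised metabolism. Its counts were 803, 1033 and 868 in wounded WT and 1457, 1372 and 1340 in wounded isi1-2, against at most 3 in unwounded samples. The groups did not overlap, and the spread within each was small. Levels were 32.1 ± 2.06 and 56.4 ± 3.75 CPM, and the log2 fold change of 0.81 (SE 0.08) had the lowest adjusted p of the set, 5.02e-05 in edgeR. AT1G14120, a second oxygenase of this class, had no count in any unwounded sample, 72, 48 and 45 counts in wounded WT and 93, 120 and 87 in wounded isi1-2. Its log2 fold change of 1.04 just missed the threshold (edgeR adjusted p = 0.0503), and passed it without replicate 1 of wounded WT (1.33, adjusted p = 0.00554).

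AT5G28237 encodes an enzyme that uses pyridoxal phosphate as cofactor. It had 1342, 1583 and 1424 counts in wounded WT and 1874, 1805 and 1529 in wounded isi1-2, or 51.8 ± 1.21 and 70.5 ± 8.87 CPM. The isi1-2 samples were all higher on the CPM scale, with a log2 fold change of 0.45 and an SE of 0.09 (edgeR adjusted p = 0.0175). AT4G11911, related to the STAY-GREEN proteins of chlorophyll breakdown, had 703, 624 and 593 counts in wounded WT and 839, 851 and 734 in wounded isi1-2. Levels of 23.0 ± 3.01 and 32.8 ± 3.20 CPM gave a log2 fold change of 0.51 with an SE of 0.10 (edgeR adjusted p = 0.0131). These were the smallest called differences, and both calls were lost in some fits that left out a replicate, as given with the limits.

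CYP82G1, the P450 that makes the volatile homoterpene TMTT, was the most abundant member. It had 0 to 2 counts in unwounded samples, 2705, 5664 and 4074 in wounded WT and 3902, 4302 and 3276 in wounded isi1-2. The genotypes overlapped fully, at 146.5 ± 43.3 and 155 ± 22.9 CPM (log2 fold change 0.08, SE 0.20, edgeR adjusted p = 0.885). Its level after wounding was at least 1219-fold higher in WT and at least 1383-fold higher in isi1-2, the largest bounds in the set.

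DAD1 encodes a chloroplast phospholipase that releases the fatty acid from which jasmonate is made. It had no count in the unwounded samples, 43, 180 and 146 in wounded WT and 137, 158 and 112 in wounded isi1-2. The lowest value by far was replicate 1 of WT, and the groups overlapped (4.32 ± 2.36 and 5.51 ± 0.990 CPM). The acyltransferase-like AT1G32910 followed the same samples, with 152, 607 and 373 counts in WT and 369, 390 and 364 in isi1-2, and none before wounding. Neither was called (edgeR adjusted p = 0.779 and 0.883). A second acyltransferase-like gene, AT3G50280, was the single negative member of this group (log2 fold change -0.13). UGT76E12 and AT3G46700 encode UDP-glycosyltransferases and lie 8999 bases apart on chromosome 3 with 6 genes between them. UGT76E12 had 43, 135 and 75 counts in wounded WT and 218, 346 and 160 in wounded isi1-2 (log2 fold change 1.72, SE 0.38, edgeR adjusted p = 0.0558; without replicate 1 of WT 1.44, adjusted p = 0.0477). AT3G46700 had 43, 128 and 37 against 210, 207 and 89 (log2 fold change 1.49, SE 0.56, edgeR adjusted p = 0.271). The samples of UGT76E12 did not overlap between genotypes on the CPM scale, while those of AT3G46700 did.

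**Figure D5:**
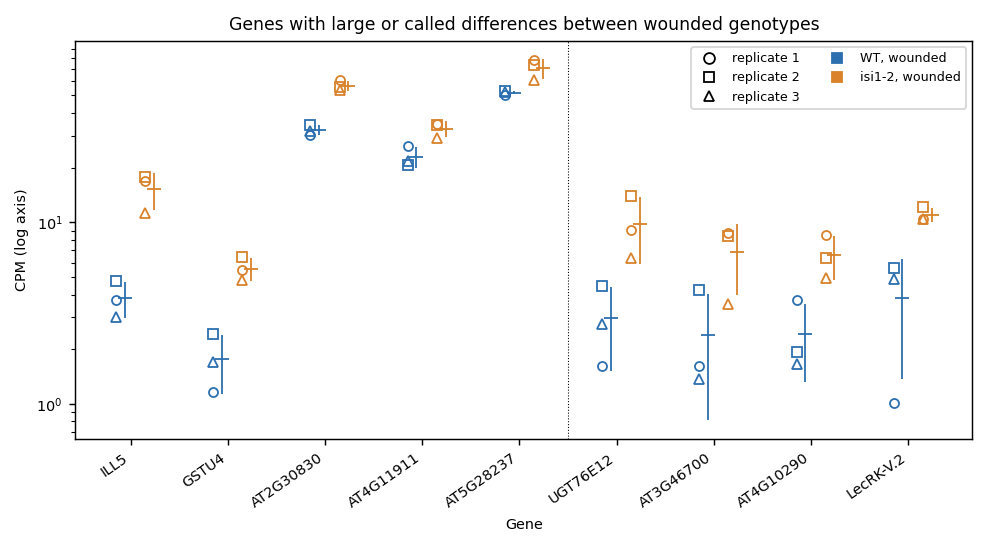
CPM on a log axis in each wounded sample for the 5 called genes, left of the dotted line, and for UGT76E12, AT3G46700, AT4G10290 and LecRK-V.2, right of it; blue marks WT, orange isi1-2, the symbol gives the replicate, and the dash and bar give the mean ± SD. For the 5 called genes every orange point lies above every blue one, as it does for UGT76E12, AT4G10290 and LecRK-V.2 but not for AT3G46700. LecRK-V.2 has a WT replicate 1 that stands alone at its bottom.

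Genes of redox balance and detoxification numbered 5. GSTU4, a glutathione S-transferase of the tau class that couples glutathione to reactive compounds, was the one called. Its counts were 31, 73 and 46 in wounded WT and 132, 158 and 121 in wounded isi1-2, with no overlap. Levels of 1.76 ± 0.632 and 5.56 ± 0.802 CPM gave a log2 fold change of 1.65 with an SE of 0.26 (edgeR adjusted p = 0.00375). MDAR3, which regenerates ascorbate, had a log2 fold change of 0.81 that did not pass (edgeR adjusted p = 0.103). It was one of 4 members in which replicate 1 of wounded WT was more than 1.5 times the mean of the others, the reverse of the usual order, and it passed without that replicate (1.11, adjusted p = 0.0126). The methionine sulfoxide reductase gene MSRB9, the peroxidase gene PRX25 and AT1G19550, of the glutathione S-transferase family, were not called. PRX25 had up to 5 counts unwounded, 35, 39 and 28 in wounded WT and 32, 49 and 39 in wounded isi1-2. Of the windows of AT1G19550, 11.2% recur in its relative AT1G19570, so reads from these windows may be missing from the counts of both genes.

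Regulators of transcription were 11 members, with 0 called, 7 positive and 4 negative log2 fold changes and a median of 0.21. AT2G22880, a small protein with the VQ motif that binds WRKY factors, was the most abundant. It had 0 to 2 counts before wounding, 363, 1210 and 798 in wounded WT and 653, 805 and 847 in wounded isi1-2. WT alone spanned the whole range of isi1-2, and the difference was not called (edgeR adjusted p = 0.851). GRX480, a glutaredoxin that binds TGA factors, showed a milder form of this, with 171, 330 and 338 counts in WT and 288, 299 and 263 in isi1-2 (edgeR adjusted p = 0.683).

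The zinc-finger gene ZAT18 had the most negative log2 fold change of the 56. Its counts were 147, 240 and 283 in wounded WT and 177, 106 and 121 in wounded isi1-2, or 7.97 ± 2.45 and 5.48 ± 1.64 CPM (log2 fold change -0.54, SE 0.25, edgeR adjusted p = 0.298). The groups overlapped. ZAT12, a related factor of oxidative and light stress, had the opposite sign, with 104, 139 and 140 counts in WT and 166, 174 and 134 in isi1-2 (log2 fold change 0.49, SE 0.15, edgeR adjusted p = 0.108). DDF1, an AP2/ERF factor close to the cold-response CBF proteins, was absent from all unwounded libraries. It had 90, 261 and 161 counts in wounded WT and 116, 114 and 140 in wounded isi1-2 (log2 fold change -0.27, edgeR adjusted p = 0.738), with isi1-2 inside the range of WT.

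The bHLH gene BHLH92 had 30, 70 and 75 counts in wounded WT and 54, 26 and 64 in wounded isi1-2, none before wounding, and overlapping groups. NAC3, which encodes ANAC055, a NAC factor that acts downstream of MYC2, had 48, 146 and 146 counts in WT and 122, 88 and 85 in isi1-2, also from none. MYB108, MYB15, the bHLH gene AT2G22760 and GL3, a bHLH factor of leaf hair formation, complete the group, with log2 fold changes from 0.26 to 0.97. MYB15, a regulator of defence phenolics and cold responses, had the largest, with 67, 206 and 131 counts in WT and 275, 234 and 177 in isi1-2 (log2 fold change 0.97, SE 0.29, edgeR adjusted p = 0.113). On the CPM scale the 3 isi1-2 samples were all above WT, by a narrow margin. GL3 was the scarcest member per kb, at 28 to 44 counts in each wounded sample.

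Signalling and protein ubiquitination held 7 members, 0 of them called, with a median log2 fold change of 0.46. The kinase gene MAPKKK21 had 0 to 4 counts before wounding, 798, 1832 and 1486 in wounded WT and 1399, 1043 and 1223 in wounded isi1-2. Its relative MAPKKK19 had 235, 277 and 236 counts in WT and 426, 240 and 304 in isi1-2. The genotypes overlapped for MAPKKK21 (48.5 ± 16.3 and 49.6 ± 7.99 CPM, edgeR adjusted p = 0.969), and were apart but not called for MAPKKK19 (8.90 ± 0.258 and 13.2 ± 4.10 CPM, edgeR adjusted p = 0.174). These are the genes that share the printed G-box stretch.

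LecRK-V.2, a receptor kinase with an extracellular lectin domain, had no unwounded count, 27, 169 and 133 counts in wounded WT and 252, 299 and 262 in wounded isi1-2. Every isi1-2 sample was above every WT sample on the CPM scale. Replicate 1 of WT was 0.193 times the mean of the other WT replicates, the lowest such ratio in the set. The difference was not called with that sample (log2 fold change 1.505, SE 0.54, edgeR adjusted p = 0.265) and was called without it (1.07, adjusted p = 0.00126). CML39, a calmodulin-like calcium sensor, had 0 counts in every unwounded sample, 101, 142 and 110 in wounded WT and 168, 169 and 132 in wounded isi1-2, with every isi1-2 sample above WT on the CPM scale (log2 fold change 0.60, SE 0.17, edgeR adjusted p = 0.103). AT2G44578 and AT1G28040 encode RING-finger proteins, a class of ubiquitin ligases. AT2G44578 had 375, 518 and 456 counts in wounded WT and 511, 263 and 379 in wounded isi1-2, with the lowest and the highest CPM both in isi1-2 (edgeR adjusted p = 0.955).

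Among 3 members linked to proteolysis, AT1G73325, a protease inhibitor of the Kunitz type, showed the highest ratio of replicate 1 of wounded WT to the others, 2.56. It had 468, 185 and 206 counts in WT and 437, 332 and 390 in isi1-2 (log2 fold change 0.59, SE 0.37, edgeR adjusted p = 0.485; without that replicate 1.204, adjusted p = 0.00679). MC7, a metacaspase, had 144, 123 and 120 counts in WT and 173, 169 and 148 in isi1-2, apart on the CPM scale and not called (edgeR adjusted p = 0.256). The aspartyl protease gene AT5G19100 overlapped between genotypes.

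Growth, transport and other annotated functions covered 6 members with a median log2 fold change of 0.63 and 0 called. AT4G10290, of the cupin family, had no count before wounding, 99, 58 and 45 counts in wounded WT and 204, 157 and 124 in wounded isi1-2 (log2 fold change 1.44, SE 0.32, edgeR adjusted p = 0.0607; without replicate 1 of WT 1.88, adjusted p = 8.02e-04). AT3G28600, an ATPase of the AAA type, had 85, 273 and 225 against 337, 344 and 307 counts (0.96, SE 0.31, edgeR adjusted p = 0.159; without that replicate 0.63, adjusted p = 0.0113). Both had all isi1-2 samples above WT on the CPM scale. SAUR35, from the family of small auxin-responsive genes, went the other way, with 51, 143 and 107 counts in WT and 54, 60 and 72 in isi1-2, and was not called (log2 fold change -0.50, edgeR adjusted p = 0.418). AT3G59340, AT5G10625 and AT4G13860, which encode a transporter-like, a flowering-factor-like and an RNA-binding protein, had log2 fold changes of 0.60 to 0.63.

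For 8 members no function can be given, and 0 of them were called. AT2G45930 and AT2G45940 stand head to head, 48 bases apart on chromosome 2. The annotated microRNA gene MIR5655, with 0 counts in every sample, spans the gap and overlaps the exons of both by 281 and 73 bases. The gap is shown because it is the whole space between their starts and opens with a T/G-box on the other strand, in capitals (TAIR10.1, chr2:18902915-18902962, plus strand).
AT2G45930 and AT2G45940 gap: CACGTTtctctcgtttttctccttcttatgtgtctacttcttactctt
AT2G45940 was the steadiest of the pair, with 70, 75 and 70 counts in wounded WT and 62, 58 and 66 in wounded isi1-2, while AT2G45930 had 49, 87 and 107 against 52, 40 and 57. On the CPM scale both overlapped between genotypes, with log2 fold changes of -0.03 and -0.52. AT5G12340 was the most abundant of the 8, at 9.13 ± 3.68 and 9.24 ± 1.23 CPM. AT5G44350 had 27 to 48 counts in each wounded sample. The others were AT3G27809, AT5G03204, AT5G22545 and AT5G56880, with log2 fold changes from 0.22 to 0.88.

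The 5 noncoding members were AT1G09623, AT1G11185, AT2G45685, AT3G07045 and AT5G40348, with 0 called and log2 fold changes from -0.23 to 0.57. AT1G09623 had 1 to 4 counts unwounded, 281, 433 and 378 in wounded WT and 404, 288 and 291 in wounded isi1-2, with overlapping groups (edgeR adjusted p = 0.933). Its exons lie wholly inside those of AT1G76360 on the opposite strand, which had 588 to 775 counts in unwounded and 2032 to 2957 in wounded samples. AT2G45685 shares 96.7% of its exons with the opposite strand of TCP9, which went from 101 to 147 counts unwounded to 421 to 830 wounded. AT5G40348 overlaps 31.1% of its length with MYB24 on the opposite strand, which had at most 1 count in any wounded sample. The libraries mark strand, but whether strand was used in counting is not given in the sources used here, so a member and its opposite-strand partner may not be fully separated. Coding members in the same position include AT2G22880 inside EMB2001, AT1G19550 inside AT1G19540, UGT76E12 (97.9% with AT3G46658), AT3G27809 (99.3% with MYB21) and AT5G56880 (96.1% with BGAL4). Reads assigned to more than 1 gene were at most 0.117% of a library. In unwounded samples AT2G22880 had 0 to 2 counts while EMB2001, around it, had 380 to 526. How far strand kept such pairs apart was not tested.

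Known gene lists of the response give the surroundings of these genes. Of 15 tested jasmonate synthesis genes, all 15 were called higher after wounding in WT and in isi1-2, where 46.9% and 50.9% of all tested genes were called (23.9% and 25.1% higher). All 9 tested jasmonate catabolism genes and 8 of 8 tested terpene and volatile genes were also higher in both. These counts include the members DAD1 and CYP82G1, which this contrast chose. Between the wounded genotypes, 1 jasmonate synthesis gene (AOS), 5 catabolism genes and 5 terpene or volatile genes were higher in isi1-2 and 0 lower. Of all tested genes, 1.4% were called higher and 0.989% lower. The list medians were 0.27, 0.78 and 0.99 on the log2 scale. The terpene gene TPS03, which was among those called, already differed before wounding, at 6.79 ± 2.31 CPM in unwounded WT and 29.7 ± 1.21 CPM in unwounded isi1-2. JOX3, just outside the thresholds, had 44.9 ± 4.11 CPM in wounded WT and 101 ± 21.7 in wounded isi1-2 (log2 fold change 1.17, edgeR adjusted p = 0.00375), and BSMT1, which makes the volatile methyl salicylate, 1.16 ± 0.366 and 6.45 ± 1.61 CPM (2.47, edgeR adjusted p = 0.00109). The members that belong to these lists, DAD1 and CYP82G1, were not among the genes called. In jasmonate signalling, 17 of 21 rose and 2 fell after wounding in each genotype, where 23% and 25.7% of all tested genes were called lower, and 3 were higher in wounded isi1-2. Of the AP2/ERF list, which holds DDF1, 15 of 22 rose in each genotype, 5 fell in WT and 2 in isi1-2, and 1 was higher in wounded isi1-2. Of the ZAT and AZF list, which holds ZAT12 and ZAT18, 6 of 8 rose and 1 fell in each genotype, and 0 differed between wounded genotypes. The rises in these lists include those of DDF1, ZAT12 and ZAT18, which the wounding contrast chose. The WRKY list holds no member; 8 of 13 rose in WT, 9 rose and 1 fell in isi1-2, and 1 was higher in wounded isi1-2.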

How the data were processed

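For each sample the authors deposited raw read counts per gene, as whole numbers without normalization. Per the submitters' processing notes, cutadapt 1.8, STAR 2.5.3a, HTSeq 0.9.1 and the build TAIR10 were used; their settings, the annotation version and whether counting was strand-specific are not given in the sources used here. The 5 summary lines of each table and 1429 ENSRNA identifiers took no part in the choice of genes. Gene names, exons and upstream windows came from RefSeq (TAIR10.1), which matched 32548 of 32833 locus codes.

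Differential expression was tested on the counts with edgeR 4.0.16 in R 4.3.3: filterByExpr (minimum count 10, minimum total 15), TMM scaling, and glmQLFit with robust estimation over all 12 samples with 1 coefficient per group, then glmQLFTest. P-values were adjusted by Benjamini-Hochberg over 18698 genes and called under 0.05. SE is the absolute log2 fold change over the square root of F. DESeq2 1.42.0 was an alternative. The procedure was also run on simulated data with the same spread for all genes and no outlying replicate. That run does not bear on calls affected by the spread of wounded WT. A fold against a group with at most 3 counts in every library is a lower bound against 3 counts per library, 0.0976 to 0.129 CPM; it covers counting error alone, because the reads carry no molecular identifiers and several may come from 1 molecule. Motifs were searched on both strands by script.

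The members, lists and role groups were chosen with earlier results of these data known. Values per sample are given for the 12 members with the highest wounded CPM, for called members, for members in the lists and for those at the thresholds; further members are named with counts because their values, seen afterwards, came near the threshold or stood apart. No 2 replicate tables were identical. Same-numbered wounded samples of the genotypes correlated at 0.167, 0.161 and -0.0147 in their deviations from the group means, so the numbers were not taken as pairs.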

Additional observations from a re-analysis of the deposited data

How the results depend on the processing

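The 5 calls became 10 with DESeq2, 9 with a replicate block, 3 with the 6 wounded samples alone and 3 to 12 on leaving out one sample (3 without replicate 2 of wounded isi1-2 or replicate 3 of wounded WT, 12 without replicate 1 of wounded WT). No alternative called a member lower. ILL5, GSTU4 and AT2G30830 kept their calls in all 17 alternatives, AT4G11911 lost its call in 3 and AT5G28237 in 4. Replicate numbers did not pair the samples, so the block is no firmer test. Thresholds of 2 and 50 counts gave 18 members and thresholds of 10 and 15 gave 122. Over all genes, the 446 calls between wounded genotypes became 714 with DESeq2, 703 with the block, 142 with the wounded samples alone and 104 to 940 on leaving out one sample (104 without replicate 3 and 940 without replicate 1 of wounded WT). The 24 calls between unwounded genotypes became 93, 66 with the block, 38 with no filter and 6 to 48, and the 6 interaction calls 153, 75, 29 and 0 to 245 (48 and 245 both without replicate 1 of wounded WT). The cause of these shifts was not tested.

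On leaving out one sample the log2 fold change turned sign for 19 of the 56 members, none of them called. For the 10 of these among the 23 members named by rule, the ranges over single samples left out were -0.21 to 0.23 (MAPKKK21, also -0.10), -0.16 to 0.13 (AT1G09623, also -0.08), -0.11 to 0.30 (CYP82G1, also -0.006), -0.15 to 0.53 (AT2G22880), -0.15 to 0.64 (AT1G32910), -0.015 to 0.40 (GRX480), -0.035 to 0.65 (DAD1), -0.32 to 0.18 (AT2G44578, also 0.02), -0.37 to 0.20 (BHLH92, also 0.16) and -0.54 to 0.10 (DDF1). With 3 samples a group, counts near 25 and the spread of wounded WT limit what can be called.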
